A study of Sus scrofa with 2 samples.

Results

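VWF, CDH5, CLDN5 and MECOM were followed from blood to lymphatic vessels of pig skin. They are 4 of the 31908 features in the count tables and were chosen by name, as genes that are often read as marks of endothelium. VWF encodes von Willebrand factor, a large glycoprotein that tethers platelets and carries coagulation factor VIII. CDH5 encodes VE-cadherin, the adhesion molecule of endothelial adherens junctions. CLDN5 encodes a claudin that seals endothelial tight junctions. MECOM encodes a zinc finger transcription factor of the PRDM family. The name pan-endothelial held for VWF, CDH5 and CLDN5, which were found in both kinds of vessel. It did not hold for MECOM, which was found in blood endothelium and in almost no lymphatic cell.

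Cells came from the dorsal skin of male farm pigs and were profiled by droplet scRNA-seq, which counts each captured transcript once by its unique molecular identifier (UMI). The fresh library held 4379 barcodes and the cryopreserved library, from cells frozen in 90% FBS + 10% DMSO, held 4860. The titles name the cells fresh and frozen, while the protocol deposited for both describes freezing and thawing. The labels were followed, and every comparison of the libraries rests on them. The pigs were young, but the sources used here give neither an age nor whether 1 animal gave rise to both libraries. There was 1 library per condition, so no test between conditions was possible, every difference describes this pair of libraries, and all intervals are 95% intervals that cover counting error only.

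Blood and lymphatic endothelium line separate vessels. Lymphatic identity is set and kept by the transcription factor PROX1, which blood endothelium lacks. In both, neighbouring cells hold together through adherens and tight junctions and can store von Willebrand factor in rod-shaped granules, the Weibel-Palade bodies, from which it is released on demand.

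The 4 genes lie on 4 chromosomes of the Sscrofa11.1 genome. In the RefSeq annotation of that build, VWF occupies chr5:64516627-64655938 on the plus strand, and its curated transcript has 52 exons. CDH5 occupies chr6:27108560-27142145 on the plus strand and has 13 exons. CLDN5 occupies chr14:51161490-51162382 on the minus strand and consists of 1 exon of 893 bases. MECOM occupies chr13:107753207-108336136 on the minus strand and is annotated with 12 transcripts from 10 starts, the outermost overlapped on the other strand by LOC110256516. The bases around the annotated starts of VWF, CLDN5 and MECOM are shown because, in lymphatic against blood cells, VWF was lower, CLDN5 had no direction that held under each scaling, and MECOM was almost absent. Each line runs 5′ to 3′ from 250 bases before the start to 50 bases after it, with GGAA and its reverse complement TTCC, the core that ETS factors such as ERG bind, in capitals. For VWF the start of the curated transcript was used, 966 bases inside a predicted one, and for MECOM the outermost start.
VWF, chr5:64517343-64517642 (plus strand): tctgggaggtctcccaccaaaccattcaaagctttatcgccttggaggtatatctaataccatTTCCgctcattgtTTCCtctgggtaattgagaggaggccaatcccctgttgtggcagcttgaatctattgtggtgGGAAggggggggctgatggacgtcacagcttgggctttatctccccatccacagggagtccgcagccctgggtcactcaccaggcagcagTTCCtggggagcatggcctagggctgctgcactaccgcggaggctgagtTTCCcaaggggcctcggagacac
CLDN5, chr14:51162333-51162632 (minus strand): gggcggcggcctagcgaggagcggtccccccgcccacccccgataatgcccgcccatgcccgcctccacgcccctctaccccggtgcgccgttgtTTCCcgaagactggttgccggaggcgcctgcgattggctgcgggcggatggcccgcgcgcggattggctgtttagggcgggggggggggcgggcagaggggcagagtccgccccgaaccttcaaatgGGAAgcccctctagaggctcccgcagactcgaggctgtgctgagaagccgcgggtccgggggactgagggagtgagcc
MECOM, chr13:108336087-108336386 (minus strand): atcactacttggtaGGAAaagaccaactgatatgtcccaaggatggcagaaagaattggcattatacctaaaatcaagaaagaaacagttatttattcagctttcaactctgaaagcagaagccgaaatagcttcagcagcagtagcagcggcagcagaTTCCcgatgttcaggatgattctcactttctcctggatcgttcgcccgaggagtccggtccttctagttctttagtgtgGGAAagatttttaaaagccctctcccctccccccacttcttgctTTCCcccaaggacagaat
GGAA or TTCC occurred 5 times in the VWF window, 2 times in that of CLDN5 and 4 times in that of MECOM. Over 20667 protein-coding genes, windows of the same length held a median of 3 such matches, and 95.1% held at least 1. The letters GATAA, read on either strand and bound by GATA factors, occurred 2 times in the VWF window and 1 time in that of CLDN5. Of all windows, 22.2% held at least 1 such match and 4.86% at least 2. The letters ACAAT, read on either strand and bound by SOX factors, occurred 2 times in the VWF window. Of all windows, 24.5% held at least 1 such match and 5.66% at least 2. The MECOM window had no GATAA, and those of CLDN5 and MECOM had no ACAAT. A match is a run of letters and not a binding site.

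Cells were clustered without the 4 genes, so that none of them could decide which cells were called endothelial. After the study's maxima for genes, UMIs and mitochondrial share, 2775 fresh and 4223 cryopreserved cells remained, with 32274985 and 36687009 UMIs. Blood endothelium was 1 cluster of 201 fresh and 269 cryopreserved cells, with medians of 6531 and 3947 UMIs per cell. Lymphatic endothelium was 1 cluster of 107 and 135 cells, with medians of 6699 and 3780. PROX1 stood at 902 CPM, UMIs of a gene per 1000000 UMIs of the class, in fresh lymphatic cells and at 912 CPM in cryopreserved ones, against 5.74 and 15.4 in blood endothelium. FLT1 and PLVAP, a VEGF receptor and the protein of capillary diaphragms, had 971 and 732 CPM in fresh blood endothelium against 21.0 and 18.5 in fresh lymphatic cells. PROX1 was on the marker list used to name lymphatic clusters, and FLT1 and PLVAP were on that for blood clusters. Their levels therefore describe the classes and test nothing. The libraries shared 6 barcodes, and none of them was endothelial. Fibroblast markers, summed over 9 genes of which 8 had UMIs, reached 2037 CPM in cryopreserved blood endothelium and 330 CPM in fresh blood endothelium, and 5 cells held 85.7% of the former. Without the 5 endothelial cells richest in these markers in each class and library, none of the 24 ratios of the 4 genes between the vessels, the libraries, or endothelium and other lineages moved beyond its interval, and other ratios were not recomputed.

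VWF was present in both kinds of vessel and higher in blood endothelium. In fresh cells it had 1180 UMIs in blood endothelium, or 752 CPM (710 to 796), and 365 in lymphatic endothelium, or 451 CPM (406 to 500). In cryopreserved cells it had 862 CPM (811 to 916) in blood and 524 CPM (468 to 586) in lymphatic endothelium. The lymphatic level was lower in both libraries and the intervals of the classes did not meet. The log2 ratio of CPM, lymphatic over blood, was −0.74 (−0.91 to −0.57) for fresh and −0.72 (−0.90 to −0.53) for cryopreserved cells.

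CDH5 showed the same direction. Its level was 345 CPM (317 to 376) in fresh blood endothelium, from 542 UMIs, and 185 CPM (157 to 217) in fresh lymphatic endothelium, from 150 UMIs. In the cryopreserved library it was 344 CPM (312 to 378) in blood and 239 CPM (201 to 281) in lymphatic endothelium. The counting intervals of the 2 class levels did not meet in either library. The log2 ratio, lymphatic over blood, was −0.90 (−1.17 to −0.63) for fresh and −0.53 (−0.81 to −0.25) for cryopreserved cells, and these intervals overlap.

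CLDN5 differed least between the vessels. Its level was 419 CPM (388 to 453) in fresh blood and 515 CPM (467 to 567) in fresh lymphatic endothelium, and 435 CPM (399 to 473) and 566 CPM (507 to 630) in the cryopreserved library. The log2 ratio, lymphatic over blood, was 0.30 (0.12 to 0.48) and 0.38 (0.18 to 0.58) when scaled by total UMIs. It turned to −0.01 and −0.04 when scaled by TMM, a method that sets class totals from a trimmed set of genes. TMM did not set the median gene at 0 here. Over 4812 genes the median of the mean log2 ratio of both libraries was 0.17 by total UMIs and −0.20 by TMM. TMM lowered every lymphatic over blood log2 ratio by 0.31 for fresh and by 0.42 for cryopreserved cells, and DESeq2 size factors lowered them by 0.25 and 0.30. No direction of CLDN5 between the vessels is therefore given. VWF, CDH5 and MECOM stayed lower in lymphatic endothelium under each scaling.

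MECOM separated the vessels. It had 2041 UMIs in fresh blood endothelium, or 1301 CPM (1245 to 1358), in 181 of 201 cells, and no UMI among the 809193 UMIs of 107 fresh lymphatic cells. A count of 0 there allows up to 3.71 CPM, taken as 3 counts, so by this floor MECOM was at least 351-fold lower in lymphatic endothelium. The exact 95% limits are wider, with an upper limit of 4.56 CPM for the level and of −8.16 for the log2 ratio, lymphatic over blood. In the cryopreserved library it had 1317 UMIs in blood endothelium, or 1068 CPM (1011 to 1127), in 229 of 269 cells. The 6 UMIs of cryopreserved lymphatic endothelium, 10.0 CPM (3.68 to 21.8), all lay in 1 cell, which was among the 6% of cells with the highest doublet scores. The log2 ratio there was −6.74 (−8.18 to −5.61), and without the cells of highest doublet score MECOM had no UMI in lymphatic cells of either library. The 4 genes were not left out of the doublet score, so a lymphatic cell with MECOM could score high by carrying it.

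**Figure D1:**
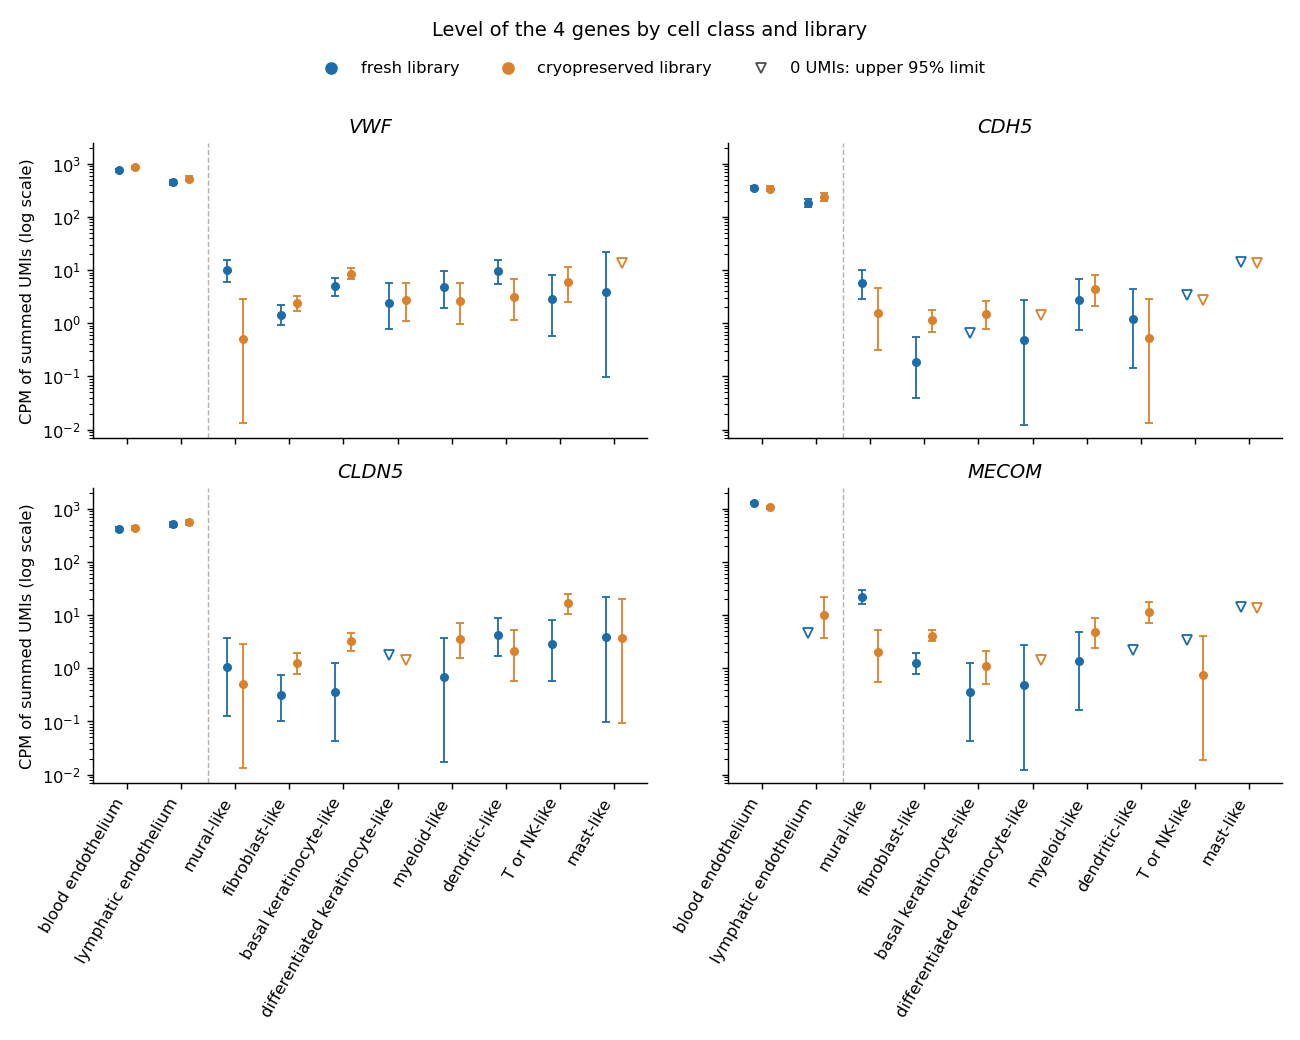
CPM of summed UMIs on a log axis for each gene, by cell class, in the fresh (blue) and cryopreserved (orange) library; bars are exact 95% Poisson intervals and open triangles the upper limits of classes with 0 UMIs. VWF, CDH5 and CLDN5 stand high in both endothelial classes left of the dashed line, while MECOM drops from 1301 and 1068 CPM in blood endothelium to 0 and 10.0 CPM in lymphatic endothelium.

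Differences of this size between the vessels have to be read against all genes. Of 5530 genes with at least 50 UMIs over both classes of the fresh library, 33.0% differed at least 2-fold, and of 4942 in the cryopreserved library, 32.8% did. In fresh cells 17.6% were at least 2-fold higher and 15.4% at least 2-fold lower in lymphatic endothelium, and in cryopreserved cells 17.0% and 15.8%. Of the 4 genes, MECOM was past 2-fold in both libraries and the others in neither when scaled by total UMIs, whereas with TMM VWF also passed it in both, at −1.04 and −1.13, and CDH5 in the fresh library, at −1.20. The median gene had a log2 ratio of 0.19 for fresh and 0.18 for cryopreserved cells. Among 4812 genes measured in both libraries, 928 had a lower mean log2 ratio than VWF and 935 a lower one than CDH5, while 2850 lay below CLDN5. Only 4 lay below MECOM. Among them, named after their values were seen, were the receptor ADGRL4 and the fatty acid binding protein FABP4, with 1605 and 1591 UMIs in blood and 3 and 3 in lymphatic endothelium. The fresh ratio of MECOM is a bound, with 0 UMIs set at 3, so its rank depends also on its level in blood endothelium. SELP had the same 0 and 6 UMIs in lymphatic cells and lay above MECOM, with 870 and 769 UMIs in blood endothelium. TMM changed the split of genes past 2-fold in both libraries from 596 higher and 619 lower to 380 higher and 834 lower.

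**Figure D2:**
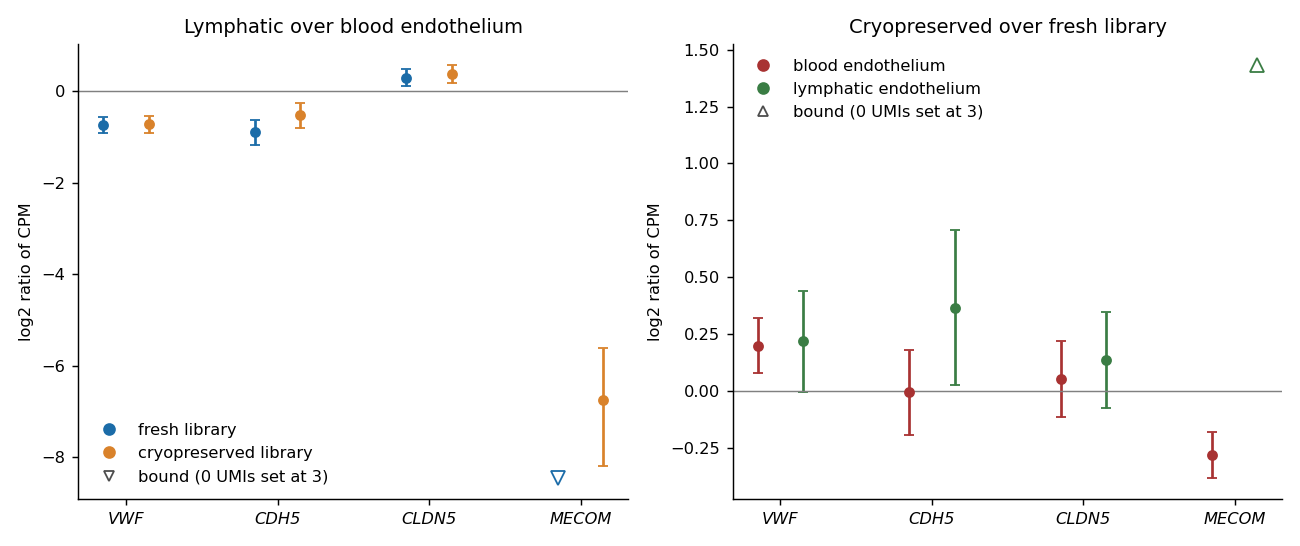
Log2 ratios of CPM with 95% counting intervals, lymphatic over blood endothelium in each library (left) and cryopreserved over fresh in each kind of endothelium (right); open triangles are bounds in which 0 UMIs were set at 3. VWF and CDH5 lie below 0 in both libraries, CLDN5 lies at 0.30 and 0.38 by total UMIs but at −0.01 and −0.04 by TMM, and MECOM lies at or below −6.74.

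MECOM and PROX1 were then counted in the same cells. In fresh lymphatic endothelium 91 of 107 cells had a PROX1 UMI and none had a MECOM UMI (0 of 107 cells, upper limit 3.39%). In the cryopreserved library 109 of 135 lymphatic cells had PROX1, and 1 of these also had MECOM. In blood endothelium the reverse was seen, with MECOM in 90.0% of fresh and 85.1% of cryopreserved cells and PROX1 in 3.48% and 2.97%. Of the 15 blood endothelial cells with a PROX1 UMI in both libraries, 14 also had MECOM, and 1 of these 14 had a high doublet score. All endothelial cells were also divided by their own PROX1 UMIs, in place of the clusters. This put the 15 blood cells on the PROX1-positive side, and 42 lymphatic cells without a PROX1 UMI on the PROX1-negative side. MECOM then stood at 1251 CPM in PROX1-negative and 70.7 CPM in PROX1-positive cells of the fresh library, and at 992 and 104 CPM in the cryopreserved library. By this division VWF remained lower in PROX1-positive cells, with 748 against 452 CPM in fresh and 834 against 564 CPM in cryopreserved cells, and CDH5 did so with 343 against 187 and 333 against 255 CPM. CLDN5 had 446 CPM in PROX1-negative and 463 CPM in PROX1-positive cells of the fresh library, and 427 and 595 CPM in the cryopreserved library.

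**Figure D3:**
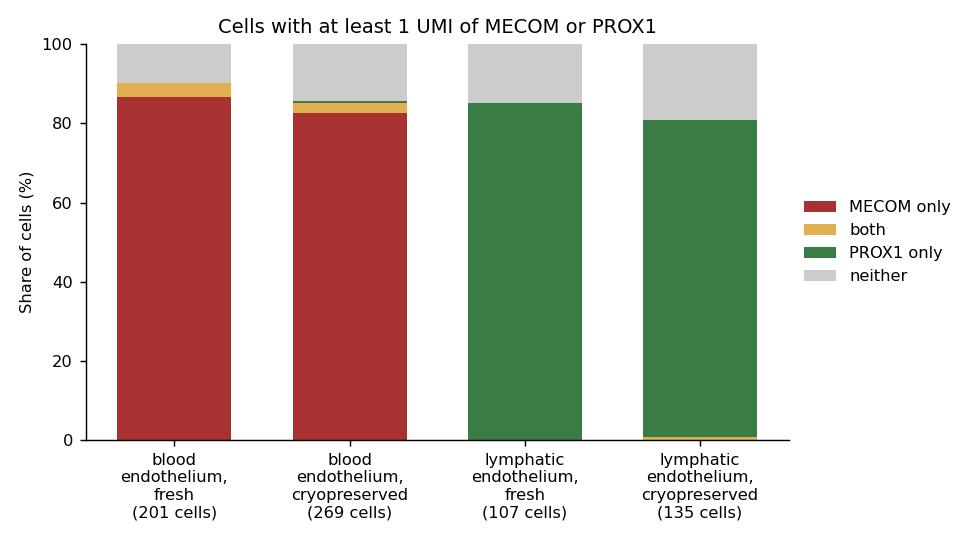
Share of cells (%) of blood and lymphatic endothelium with at least 1 UMI of MECOM alone, of both MECOM and PROX1, of PROX1 alone, or of neither, in each library. Cells with MECOM fill 90.0% and 85.1% of the bars of blood endothelium, and cells with PROX1 alone nearly all of the detected part of the lymphatic bars.

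Shares of cells with a UMI depend on depth, so each cell was also thinned to 1000 UMIs. MECOM was then found in 62.2% (55.1 to 69.1%) of fresh and 53.8% (47.6 to 59.9%) of cryopreserved blood endothelial cells. VWF was found in 40.8% and 51.1% of blood and in 37.4% and 37.3% of lymphatic cells, against 80.6%, 73.6%, 69.2% and 65.2% without thinning. CDH5 was found in 27.6% and 25.8% of blood and 13.1% and 17.2% of lymphatic cells, against 77.1%, 65.1%, 55.1% and 52.6% without thinning. For VWF the thinned intervals of blood and lymphatic cells overlapped in both libraries. They were 33.9 to 48.0% and 28.2 to 47.3% in fresh cells, and 44.9 to 57.3% and 29.1 to 46.1% in cryopreserved cells. For CDH5 they overlapped in the cryopreserved library only, at 20.6 to 31.5% and 11.2 to 24.6%. CLDN5 was found in 38.3% (29.1 to 48.2%) and 40.3% (31.9 to 49.1%) of lymphatic and 26.0% (20.0 to 32.7%) and 28.8% (23.4 to 34.7%) of blood cells, with intervals that overlapped in both libraries, and without thinning in 80.4% and 71.1% against 60.7% and 54.6%. Thinning sets totals equal, so for CLDN5 these shares carry the same limit as scaling by total UMIs. In all other lineages together, with medians of 11781 and 8459 UMIs per cell, the thinned shares were 0.164% and 0.316% for VWF, 0.123% and 0.158% for CDH5, 0.0818% and 0.185% for CLDN5, and 0.164% and 0.185% for MECOM.

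Most blood endothelial cells carried several of the genes. At least 2 of them were found in 187 of 201 fresh and 229 of 269 cryopreserved blood endothelial cells, and all 4 in 84 and 86. In lymphatic endothelium 77 of 107 and 94 of 135 cells had at least 2, and none had all 4. Only 3 fresh and 7 cryopreserved blood endothelial cells, and 4 and 12 lymphatic cells, had none.

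Between the libraries the levels moved little. VWF had a log2 ratio, cryopreserved over fresh, of 0.20 (0.08 to 0.32) in blood and 0.22 (−0.0050 to 0.44) in lymphatic endothelium. CDH5 had −0.01 (−0.19 to 0.18) in blood and 0.37 (0.02 to 0.71) in lymphatic endothelium. CLDN5 had 0.05 (−0.12 to 0.22) and 0.14 (−0.08 to 0.35). MECOM had −0.28 (−0.39 to −0.18) in blood endothelium, which became −0.43 with DESeq2 size factors and −0.15 as a mean over cells. None of these passed 2-fold. Of all genes, 2.96% of 5609 in blood endothelium did (1.71% higher and 1.25% lower in cryopreserved cells), and 5.01% of 4350 in lymphatic endothelium (2.90% higher and 2.11% lower). In lymphatic endothelium MECOM had 6 UMIs in cryopreserved and 0 in fresh cells. Median depth per cell was also lower in the cryopreserved library, as given above, and its part in these ratios was not tested.

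Outside endothelium the 4 genes were scarce. Endothelium held 93.8% of the VWF UMIs of the fresh library and 91.0% of those of the cryopreserved library, 97.1% and 92.6% of CDH5, 98.1% and 91.2% of CLDN5, and 96.8% and 92.0% of MECOM. The level of each gene in all other cells together was 3.41 and 3.93 CPM for VWF, 0.702 and 1.29 for CDH5, 0.702 and 2.41 for CLDN5, and 2.27 and 3.30 for MECOM. Relative to these, endothelium was 190- and 191-fold higher for VWF, 414- and 240-fold for CDH5, 643- and 198-fold for CLDN5, and 377- and 219-fold for MECOM. Part of what remained lay in cells with more than 1 of the genes. At least 2 of the genes were found in 11 of 2467 fresh and 22 of 3819 cryopreserved cells of other lineages, and 8 and 17 of these were among the 6% with the highest doublet scores. Without the cells of highest score, the other lineages fell to 2.53 and 2.11 CPM for VWF, 0.178 and 0.519 for CDH5, 0.428 and 1.19 for CLDN5, and 0.749 and 0.764 for MECOM. The score did not leave out the 4 genes, so part of this fall may be built in, which was not tested. Among clusters outside endothelium, CDH5 was highest in a small myeloid-like one with CD300C among its leading genes. There it had 4 UMIs in 3 of 14 fresh cells, or 28.3 CPM (7.71 to 72.5). In cryopreserved cells it had 8 UMIs in 6 of 44, or 22.8 CPM (9.83 to 44.9). Of the CDH5 UMIs of all myeloid-like cells, 3 of 4 fresh and 3 of 10 cryopreserved ones lay in cells of high doublet score.

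MECOM was also found in mural-like cells, the pericytes and smooth muscle that wrap vessels. It had 43 UMIs in 6 of 246 fresh mural-like cells, or 22.4 CPM, and all 6 cells were among those of highest doublet score and carried a second gene of the set. In the cryopreserved library it had 4 UMIs in 1 mural-like cell, which was not of high doublet score and also carried a second gene. The 22 UMIs of MECOM in cryopreserved dendritic-like cells all lay in 1 cell of high doublet score. Whether any of these cells were doublets was not tested, and the score did not leave out the 4 genes. Over both libraries, fibroblast-like cells held the most MECOM UMIs outside endothelium, 88, at a low level of 2.73 CPM. In the fresh library 20 such cells had 20 UMIs and no other gene of the set, and in the cryopreserved library 19 cells had 68. Without the cells of highest doublet score, 18 and 18 UMIs remained in fibroblast-like cells, of 21 and 25 in all non-endothelial cells. VWF in basal keratinocyte-like cells was also spread over many cells. Once the cells of high doublet score were left out, it had 28 UMIs in 24 of 391 fresh cells and 41 UMIs in 32 of 815 cryopreserved cells. These were 5.09 CPM (3.38 to 7.35) and 5.22 CPM (3.75 to 7.08), while CDH5 had 0 and 5 UMIs in the same cells. After thinning all basal cells, VWF was found in 1 of 407 fresh cells (0.00622 to 1.36%) and in 5 of 833 cryopreserved cells (0.195 to 1.40%). The shares were 0.164% and 0.316% in all non-endothelial cells together, the basal cells included.

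CLDN5 had its highest level outside endothelium in T or NK-like cells of the cryopreserved library. It had 23 UMIs in 18 of 253 cells, or 17.0 CPM (10.8 to 25.5), against 3 UMIs in 3 of 145 fresh cells, or 2.82 CPM (0.582 to 8.25). The ratio of cryopreserved to fresh was 6.02 (1.82 to 31.3), for a class picked by its high level. All non-endothelial cells together, the T or NK-like cells included, also went from 0.702 CPM in fresh to 2.41 CPM in cryopreserved cells. Of the 23 UMIs, 21 lay in 16 cells with no other gene of the set, and 22 remained without the cells of highest doublet score. CDH5 had no UMI in T or NK-like cells of either library. Both clusters of this class had CLDN5 in the cryopreserved library, with 13 UMIs in 11 cells of one and 10 UMIs in 7 cells of the other. After thinning, CLDN5 was found in 2 of 253 cryopreserved T or NK-like cells, or 0.791% (0.0959 to 2.83%). In all non-endothelial cells together, the T or NK-like cells included, the share was 0.185% (0.0742 to 0.380%), and these intervals overlap. Median depths before thinning were 4820 and 8459 UMIs.

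Within blood endothelium the 4 genes did not follow each other in every group. Sub-clustering, again without them, gave 5 groups. The second, with 44 fresh and 65 cryopreserved cells, was venous-like by ACKR1, SELP, NR2F2 and VCAM1. The fifth, with 24 and 31 cells, was arterial-like by GJA4, SEMA3G, HEY1, EFNB2 and DLL4. Not every marker was raised. The venous marker EPHB4 had 15.7 CPM in the venous-like and 30.2 CPM in the first group. The capillary marker CD36 was also raised in the venous-like group, at 532 CPM. Capillary markers summed to 1881 CPM there and to 1838 CPM in the first group. The arterial markers GJA5, SOX17 and BMX were not raised in the arterial-like group. VWF stood at 1024 and 1080 CPM in the venous-like and at 474 and 540 CPM in the arterial-like group of the fresh and cryopreserved library. Between these groups MECOM ran the other way, with 1111 and 870 CPM in the venous-like and 1919 and 1363 CPM in the arterial-like group. The opposition did not extend to the fourth group, of 39 and 49 cells, which stays unnamed. It had VWF at 926 and 1169 CPM and MECOM at 1526 and 1348 CPM. Its log2 ratio over the rest of blood endothelium was 0.37 (0.15 to 0.57) and 0.51 (0.28 to 0.75) for VWF. For MECOM it was 0.28 (0.12 to 0.44) and 0.39 (0.17 to 0.61). CDH5 had 370 and 355 CPM in the venous-like and 417 and 525 CPM in the arterial-like group, with intervals that overlapped in both libraries. CLDN5 was high in both, with 610 and 567 CPM in the venous-like and 673 and 854 CPM in the arterial-like group, against 261 and 237 CPM in the first group, which carried the capillary gene RGCC and stays unnamed. The log2 ratio of the arterial-like group over the rest of blood endothelium was 0.66 (0.49 to 0.82) for MECOM and −0.74 (−1.06 to −0.43) for VWF in fresh cells. In cryopreserved cells it was 0.40 (0.16 to 0.63) and −0.73 (−1.11 to −0.38). For CDH5 it was 0.31 (−0.05 to 0.66) in fresh and 0.70 (0.30 to 1.08) in cryopreserved cells. The third group had the lowest MECOM, 669 and 648 CPM, and all 4 genes were lower there than in the rest of blood endothelium. Its log2 ratios over the rest were −0.89 and −0.35 for VWF and −1.25 and −0.50 for CDH5. They were −0.83 and −0.77 for CLDN5 and −1.04 and −0.81 for MECOM, and every interval lay below 0. This group held the fewest UMIs per cell, a median of 3168, and had COL1A1, COL1A2 and COL3A1 raised. High doublet scores were found in 11 of its cells, and the part of these features in its levels was not tested.

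Lymphatic endothelium divided in another way. One group of 15 fresh and 13 cryopreserved cells, led by KCNJ2, COL23A1 and GATA6, had almost no VWF, with 3 and 2 UMIs, or 26.4 and 25.9 CPM. Its log2 ratio over the other lymphatic cells was −4.30 (−6.58 to −2.74) for fresh and −4.53 (−7.58 to −2.66) for cryopreserved cells. The same cells had CDH5 at 150 and 272 CPM and CLDN5 at 784 and 453 CPM, and 5 of the 28 had high doublet scores. In the remaining 3 groups VWF ranged from 421 to 723 CPM. CDH5 and CLDN5 differed in opposite directions between the second and the third. The second group had CLDN5 at 838 and 877 CPM and CDH5 at 103 and 147 CPM, and the third had CLDN5 at 293 and 366 CPM and CDH5 at 307 and 453 CPM. For CDH5 the log2 ratio over the rest was −0.97 (−1.91 to −0.14) and −0.88 (−1.59 to −0.23) in the second and 1.12 (0.63 to 1.60) and 1.27 (0.75 to 1.78) in the third. MECOM had no UMI in any of the 4 groups of fresh cells. The 1 cryopreserved cell that had it lay in the first group, in which the division genes TOP2A, CDC20 and CENPF were raised. The lymphatic groups held too few subtype markers to be named.

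**Figure D4:**
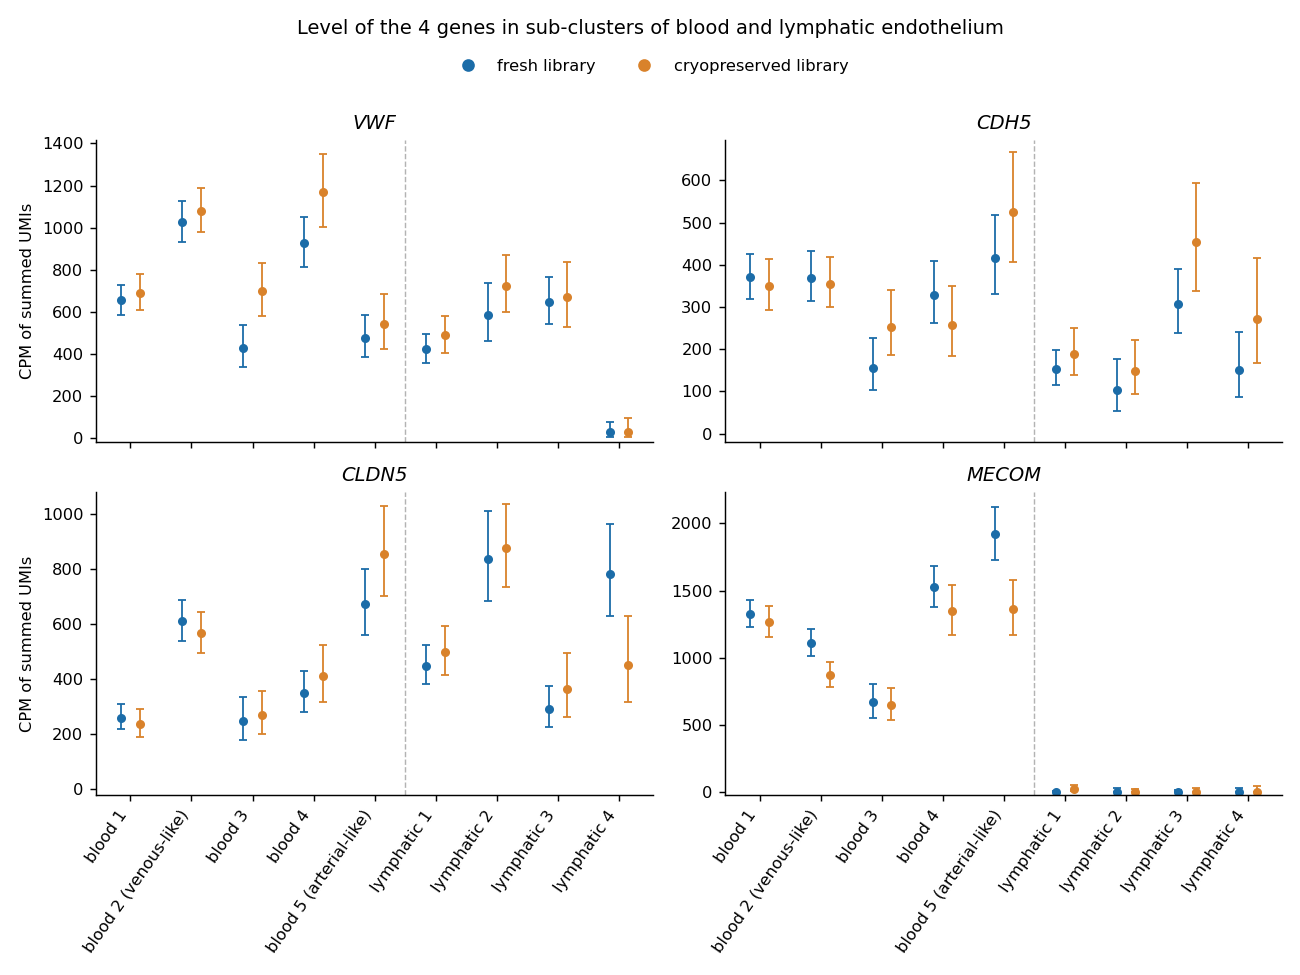
CPM of summed UMIs of each gene in 5 sub-clusters of blood and 4 of lymphatic endothelium (right of the dashed line), in the fresh (blue) and cryopreserved (orange) library, with exact 95% Poisson intervals. VWF is at 26.4 and 25.9 CPM in lymphatic group 4, and MECOM is at or near 0 in all lymphatic groups.

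The listed genes took part in the clustering that set the classes, and some were also used to name them, so their ratios describe the classes and test nothing. A lower level in lymphatic endothelium was common among genes known as pan-endothelial, of which many also served to name clusters as endothelial of either kind. Of 22 others on a list, all measured with at least 50 UMIs in endothelium of each library, 12 were at least 2-fold lower and 1 at least 2-fold higher in lymphatic endothelium in both libraries, against 12.9% and 12.4% of all genes, and their median log2 ratio was −1.36, against 0.17 over all genes. TMM gave 13 lower and 1 higher, against 834 lower and 380 higher of all 4812 genes, whose median log2 ratio with TMM was −0.20. NOS3, the endothelial nitric oxide synthase, had 117 and 106 CPM in blood and 1.24 and 3.34 CPM in lymphatic endothelium. The receptor CD93 had 338 and 284 UMIs in blood and 9 and 3 UMIs in lymphatic endothelium, and the sialomucin EMCN had 722 and 714 against 108 and 120 CPM. The adhesion molecule ICAM2 was the one that was higher, with 189 and 144 CPM in lymphatic and 46.5 and 47.0 CPM in blood endothelium. PECAM1, at 952 and 881 CPM in blood and 1101 and 746 CPM in lymphatic endothelium, had log2 ratios of 0.21 and −0.24 and was named after its values were seen.

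Genes of the Weibel-Palade body and of VWF release went both ways. Of 12 measured, 4 were at least 2-fold higher and 5 at least 2-fold lower in lymphatic endothelium in both libraries, against 12.4% and 12.9% of all genes. Their median log2 ratio was 0.34. With TMM 3 were higher and 5 lower, with a median of −0.03, against 380 higher and 834 lower of all 4812 genes. SELP, the P-selectin stored beside VWF and also used to name the blood cluster, had 554 and 624 CPM in blood endothelium and 0 and 10.0 CPM in lymphatic endothelium, and MYRIP, which ties the granules to actin, 188 and 82 UMIs against 9 and 0 UMIs. F8, coagulation factor VIII, had 112 and 110 CPM in lymphatic and 16.6 and 17.0 CPM in blood endothelium. ANGPT2, a vessel growth factor held in the same granules, had 351 and 284 CPM in lymphatic and 81.6 and 57.6 CPM in blood endothelium. MMRN1, also used to name the lymphatic cluster, had 499 and 473 CPM there and 0 and 0.811 CPM in blood endothelium.

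Partners of CDH5 at adherens junctions were near the share over all genes. Of 10 measured, 1 was at least 2-fold higher and 1 at least 2-fold lower, against 12.4% and 12.9% of all genes, with a median log2 ratio of 0.05. With TMM 1 was higher and 2 lower, against 380 higher and 834 lower of all 4812 genes. By total UMIs the higher one was JUP, plakoglobin, with 98.9 and 109 CPM in lymphatic and 17.8 and 24.3 CPM in blood endothelium. The lower one was PTPRB, the VE-cadherin phosphatase VE-PTP, with 71.7 and 50.1 CPM in lymphatic and 844 and 681 CPM in blood endothelium. The other 8, among them the catenins CTNNA1, CTNNB1 and CTNND1, passed 2-fold in neither direction in both libraries. Of 20 other cadherins, 19 had an entry under their symbol and 1 was measured. This was CDH13, with 2726 and 2439 CPM in blood and 756 and 720 CPM in lymphatic endothelium.

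Partners of CLDN5 at tight junctions were split. Of 7 measured, 2 were at least 2-fold higher and 3 at least 2-fold lower, against 12.4% and 12.9% of all genes, with a median log2 ratio of −0.999. With TMM 1 was higher and 4 lower, against 380 higher and 834 lower of all 4812 genes. JAM2, a junctional adhesion molecule, had 364 and 284 CPM in blood and 3.71 and 3.34 CPM in lymphatic endothelium, and JAM3 had 80.3 and 51.9 against 1.24 and 1.67 CPM. CGNL1, paracingulin, had 106 and 142 CPM in lymphatic and 17.2 and 18.7 CPM in blood endothelium. Of 22 other claudins, 18 had an entry under their symbol, and of these only CLDN11 had at least 50 UMIs in endothelium of each library. It had 154 and 117 CPM in lymphatic endothelium against 1.91 and 2.43 CPM in blood endothelium.

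MECOM was not alone in its family or among endothelial transcription factors. Of 13 other PRDM genes, 2 were measured. PRDM1, a repressor best known from lymphocytes, had 338 and 355 CPM in blood and 6.18 and 5.01 CPM in lymphatic endothelium, while PRDM2 had log2 ratios of 0.41 and 0.40. Of 20 endothelial transcription factors measured, 7 were at least 2-fold higher and 6 at least 2-fold lower in lymphatic endothelium, against 12.4% and 12.9% of all genes. Their median log2 ratio was 0.21. With TMM 5 were higher and 7 lower, with a median of −0.16, against 380 higher and 834 lower of all 4812 genes. The higher ones included PROX1, which defines the lymphatic class, and the lower ones SOX17, which was used to name the blood class. SOX17, a regulator of arterial identity, had 150 and 154 CPM in blood and 0 and 5.01 CPM in lymphatic endothelium, and EPAS1, a hypoxia-inducible factor, had 985 and 783 against 56.9 and 45.1 CPM. NR2F2, which acts with PROX1 in lymphatic cells, had 405 and 486 CPM in lymphatic and 98.8 and 81.1 CPM in blood endothelium.

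**Figure D5:**
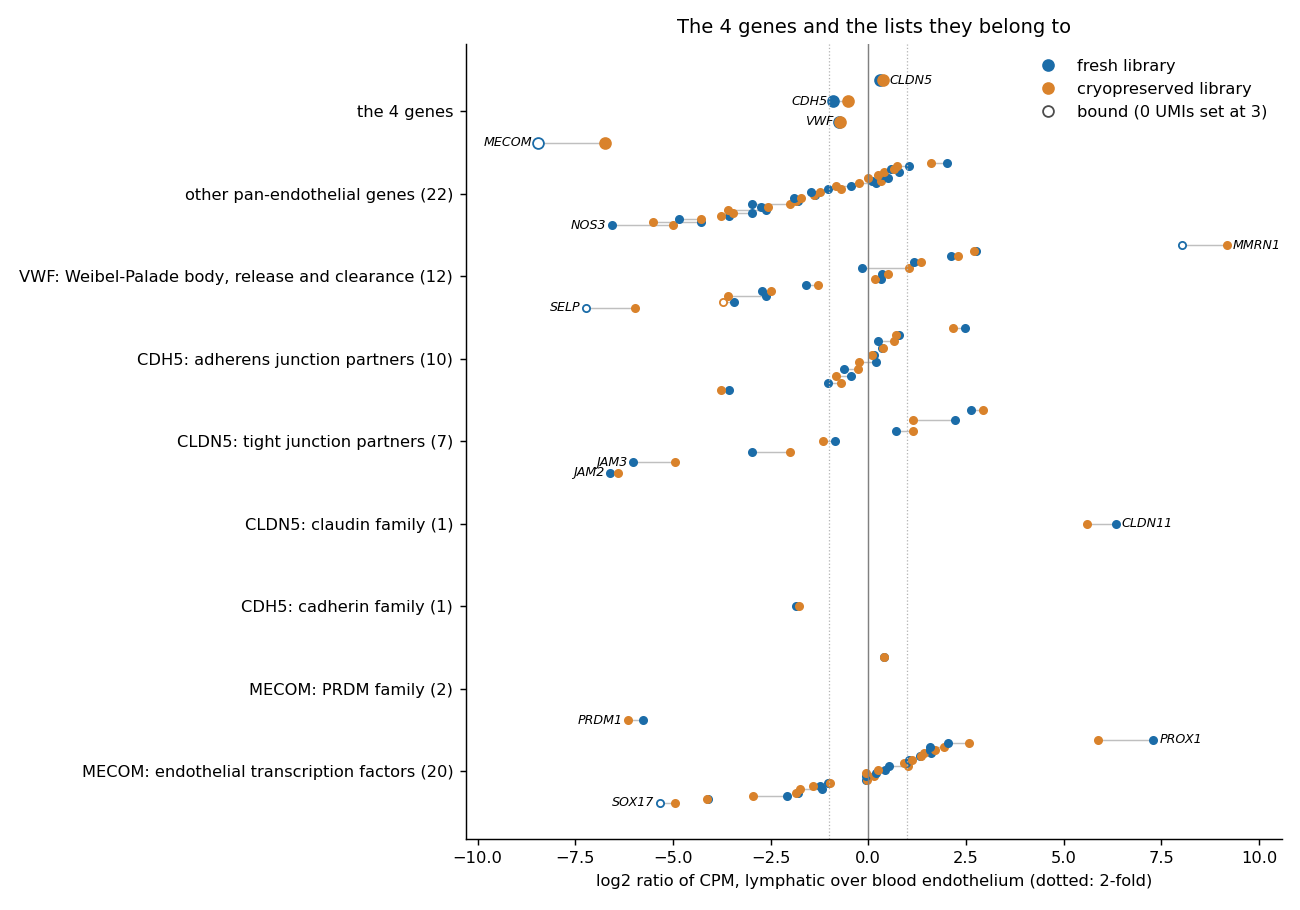
Log2 ratio of CPM, lymphatic over blood endothelium scaled by total UMIs, in the fresh (blue) and cryopreserved (orange) library for the 4 genes and the measured genes of each list (number in brackets); open circles are bounds in which 0 UMIs were set at 3, dotted lines mark 2-fold, and TMM moves all points to the left by 0.31 and 0.42. Of the 22 other pan-endothelial genes 12 lie left of the dotted lines in both libraries, and MECOM lies farther left than any listed gene.

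The genes whose levels ran most like each member were found by the correlation of log2(CPM + 1) over 23 clusters, taking the lower r of both libraries. Clusters share libraries and depth, so r is a description. For VWF they were DIPK2B (r = 0.90), CCL26 (0.90) and MYCT1 (0.89). For CDH5 they were HOXD10 (0.93), EMCN (0.91) and CCL26 (0.88), and for CLDN5 they were KDR (0.87), DIPK2B (0.87) and SHE (0.86). Those of MECOM were others, ADGRL4 (0.89), CLEC1A (0.87) and SOX17 (0.86). Among the members, r was 0.89 and 0.86 between CDH5 and VWF in the fresh and cryopreserved library and 0.41 and 0.66 between CLDN5 and MECOM.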

How the data were processed

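Per the labels and the study's methods, the authors mapped 3′ scRNA-seq reads to Sscrofa11.1 (the submitters' processing notes name Cell Ranger 4.0.0 and STAR 2.5.1b) and deposited UMI counts per gene and barcode, not normalized. Here cells with at most 4500 genes, 30000 UMIs and 10% mitochondrial UMIs, from 13 genes, were kept. Libraries were integrated and clustered in Seurat 5.3.0 with 30 dimensions and resolution 0.8, on 2000 features less the 4 genes. A cluster was named where at least 3 markers were found in at least 10% of its cells at 2 times or more the median of the other clusters, a rule set after first output was seen. Scrublet, run in scanpy 1.11.5, called 3 fresh and 35 cryopreserved doublets, 0.108% and 0.829%. These calls were too few to be used, and doublets were kept. The scores did not leave out the 4 genes. The 6% of highest score were left out as an alternative. The study describes removing cell doublets by FACS scatter, and magnetic sorting of dead cells as an alternative. Its section on libraries does not say which of them was used. Its maxima for genes and UMIs were set against doublets and multiplets. UMIs were summed per class and library and divided by the class total (CPM), with exact Poisson, binomial and conditional intervals, and normal approximations for differences between log2 ratios. A count of 0 was set at 3 counts in bounds. The ratio code was tested on simulated data. Alternatives used TMM (edgeR 4.0.16) and DESeq2 1.42.0 size factors. Named genes were the 4 members, the 3 most alike genes for each, and from each list the 2 highest, the 2 lowest and those past 2-fold in both libraries, of which examples are given. The members and all lists were chosen with earlier results of these data known. Sub-clusters used 15 dimensions and resolution 0.6. Promoter windows came from RefSeq on Sscrofa11.1, the build of the files, and that of CDH5 is not reported here.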

Additional observations from a re-analysis of the deposited data

Results flagged for a closer look

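The ratio of cryopreserved to fresh cells for MECOM lay below 0 in blood endothelium (log2 −0.28) and above 0 in lymphatic endothelium (6 UMIs against 0, a bound of 1.43 on the log2 scale), so the values lay on opposite sides of 0 in the 2 kinds of endothelium. The difference, lymphatic minus blood, was 1.719, and it was not tested. Its approximate interval, with the count of 0 set at 3 for the value, ran from −1.34 to 4.77 and spans 0. The difference rests on the 6 UMIs of 1 cryopreserved lymphatic cell with a high doublet score, and without the cells of highest score MECOM had 0 UMIs in lymphatic endothelium of both libraries. For VWF, CDH5 and CLDN5 the same difference was 0.02 (−0.23 to 0.27), 0.37 (−0.0062 to 0.75) and 0.08 (−0.18 to 0.35).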

How the results depend on the processing

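No paired analysis was possible because the labels give no replicate numbers and there is 1 library per condition. Pairs of values are fresh and cryopreserved. With TMM the log2 ratios of lymphatic over blood endothelium were −1.04 and −1.13 for VWF and −1.20 and −0.94 for CDH5, and those of CLDN5 reversed to −0.00967 and −0.0357. With DESeq2 size factors they were −0.99 and −1.02 for VWF, −0.83 for cryopreserved CDH5, and 0.0425 and 0.0785 for CLDN5. In blood endothelium cryopreserved over fresh became 0.0511 for VWF and −0.43 for MECOM, and as a mean over cells −0.15 for MECOM. Endothelium over other lineages moved with DESeq2 size factors to 7.95 and 7.93 for VWF, 7.98 for cryopreserved CLDN5 and 8.94 and 8.13 for MECOM, and as a mean over cells to 8.23 for cryopreserved MECOM. With all barcodes it was 7.16, 7.75, 7.83 and 7.78 for fresh VWF, CDH5, CLDN5 and MECOM. Without the cells of highest doublet score it rose to 8.03 and 8.53 for VWF, 10.68 and 9.25 for CDH5, 10.03 and 8.69 for CLDN5, and 10.19 and 9.94 for MECOM, while cryopreserved over fresh MECOM in lymphatic endothelium had no value, with 0 UMIs in both. With each endothelial cell divided by its own PROX1 UMIs, lymphatic over blood was 0.0543 for fresh CLDN5 and −4.15 and −3.25 for MECOM, and cryopreserved over fresh in PROX1-positive cells was 0.36 for CLDN5 and 0.56 for MECOM. The cause of these moves was not tested, beyond what each alternative leaves out by construction. Both other resolutions kept all 24 ratios within their intervals, as did leaving out the 5 cells richest in fibroblast markers, an alternative chosen after seeing the data.

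Shares of cells with a UMI rose with depth by construction. Thinned to 2000 UMIs they were 61.3% and 69.5% of blood and 52.4% and 54.7% of lymphatic cells for VWF, 42.9% and 49.2% of blood and 26.7% and 29.9% of lymphatic cells for CDH5, 35.6% and 41.1% of blood and 57.1% and 54.7% of lymphatic cells for CLDN5 and 78.0% and 74.2% of blood cells for MECOM. Without thinning they were 80.6% and 73.6% of blood and 69.2% and 65.2% of lymphatic cells for VWF, 77.1% and 65.1% of blood and 55.1% and 52.6% of lymphatic cells for CDH5, 60.7% and 54.6% of blood and 80.4% and 71.1% of lymphatic cells for CLDN5 and 90.0% and 85.1% of blood cells for MECOM. The number of genes past 2-fold was 1825 and 1620 between the vessels and 166 and 218 between the libraries in blood and lymphatic endothelium. With at least 200 UMIs it was 818 and 637 between the vessels and 30 and 30 between the libraries in blood and lymphatic endothelium. With no minimum of UMIs it was 6744 and 7480 between the vessels and 4375 and 4948 between the libraries in blood and lymphatic endothelium. The counts with no minimum include genes put past 2-fold by setting 0 at 3 UMIs, even in the reversed direction. HPS6, with 1 UMI in fresh blood and 0 in fresh lymphatic endothelium, got a log2 ratio, lymphatic over blood, of 2.54. These counts are therefore not read as differences. Over clusters 0, 2, 0 and 0 genes had r of at least 0.9 with VWF, CDH5, CLDN5 and MECOM, and over 10 named classes 20, 30, 15 and 10. Small counts widen the intervals, as for CDH5 in lymphatic endothelium, which rests on 150 and 143 UMIs.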
